A study of Danio rerio with 9 samples.

Results

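Red cell genes were followed in 9 zebrafish (Danio rerio) libraries, each labelled as 1 embryo, at a stage of about 25 hours after fertilization. The genes were 8 chosen by name for their part in the first (primitive) wave of red cells: the embryonic globins hbae3, hbae5, hbbe2 and hbbe3, and the genes alas2, slc4a1a, cahz and epb41b. Rows with these symbols were found for 7 of the 8, out of 22337 genes in the tables, and no row bore the symbol hbae5. The embryos came from matings between fish that each carried 1 zic2aGBT133 allele and 1 zic2bUW1127 allele and were raised at 29 °C with no treatment. By their labelled phenotype, 5 had a coloboma (numbers 3 to 7), which is a gap left where the choroid fissure of the eye has not closed, and 4 were normal (numbers 3, 4, 6 and 7). Which embryos shared parents was not stated. The genotype of each embryo was not stated. The normal embryos bore the tag WT in the deposited tables and the coloboma embryos the tag COL, and whether WT names a genotype was not said.

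In the zebrafish, primitive red cells arise from the intermediate cell mass of the posterior body and enter the circulation at about the stage sampled here. They fill with embryonic hemoglobin, a tetramer of alpha-like and beta-like globin chains that each hold a heme group, and they synthesize that heme themselves. In whole embryos, fewer red cells and less RNA of a gene per red cell cannot be told apart.

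The 7 genes together made up 0.113% ± 0.0356 of all counts in the coloboma embryos (SD, n = 5) and 0.179% ± 0.0628 in the normal embryos (SD, n = 4). The lowest share was 0.0868% in coloboma embryo 5 (exact binomial 95% interval 0.0856 to 0.0881) and the highest was 0.250% in normal embryo 4 (0.249 to 0.252). These intervals cover counting error only and were at most 1.47% of the value to either side. With 1 library per embryo, differences between embryos and between library preparations cannot be told apart. Total counts ran from 20461180 in coloboma embryo 5 to 59233104 in coloboma embryo 6.

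The question was whether the red cell genes differ between embryos with coloboma and normal embryos. All 7 genes had a lower fitted level in the coloboma embryos, by 0.45 to 0.88 on the log2 scale with a median of -0.62, against a median of 0.00 over the 21293 genes tested, of which 49.9% were below 0. None of the 7 passed the test (edgeR quasi-likelihood, Benjamini-Hochberg adjusted p from 0.273 to 0.554), where 0.127% of the genes tested passed as lower. At an unadjusted p under 0.05, 3 of the 7 were lower, where 4.9% of the genes tested were. With DESeq2 also 0 of the 7 passed, where 1.05% of genes passed as lower and 1.81% as higher. Single embryos moved the unadjusted count: it was 6 of 7 without coloboma embryo 3 (4.85% of all genes tested) and 7 of 7 without normal embryo 6 (3.37%), with 0 passing after adjustment (0.0987% and 0.0793% of genes passed as lower), and 2 of 7 without coloboma embryo 4 (3.85%). It was 1 of 7 without any one of coloboma embryos 5 (6.91%), 6 (3.84%) and 7 (3.74%) and normal embryos 3 (3.43%), 4 (5.22%) and 7 (6.43%). Processing moved it too. It was 6 of 7 with scaling by library size only, where 10.2% of all genes tested were lower at that level. In limma on TPM it was 5 of 7 with a pseudocount of 0.1 (8.5%) or 1 (8.64%). With a replicate block it was 4 of 7 (5.87%), but that fit also left out coloboma embryo 5, whose number no normal embryo shares. No gene of the 7 had groups that did not overlap, while 2.16% of the genes tested had every coloboma embryo below every normal one. The 7 genes moved together across the embryos (median Pearson's r of 0.91 between pairs). Counts over them are therefore not counts of independent genes.

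**Figure D1:**
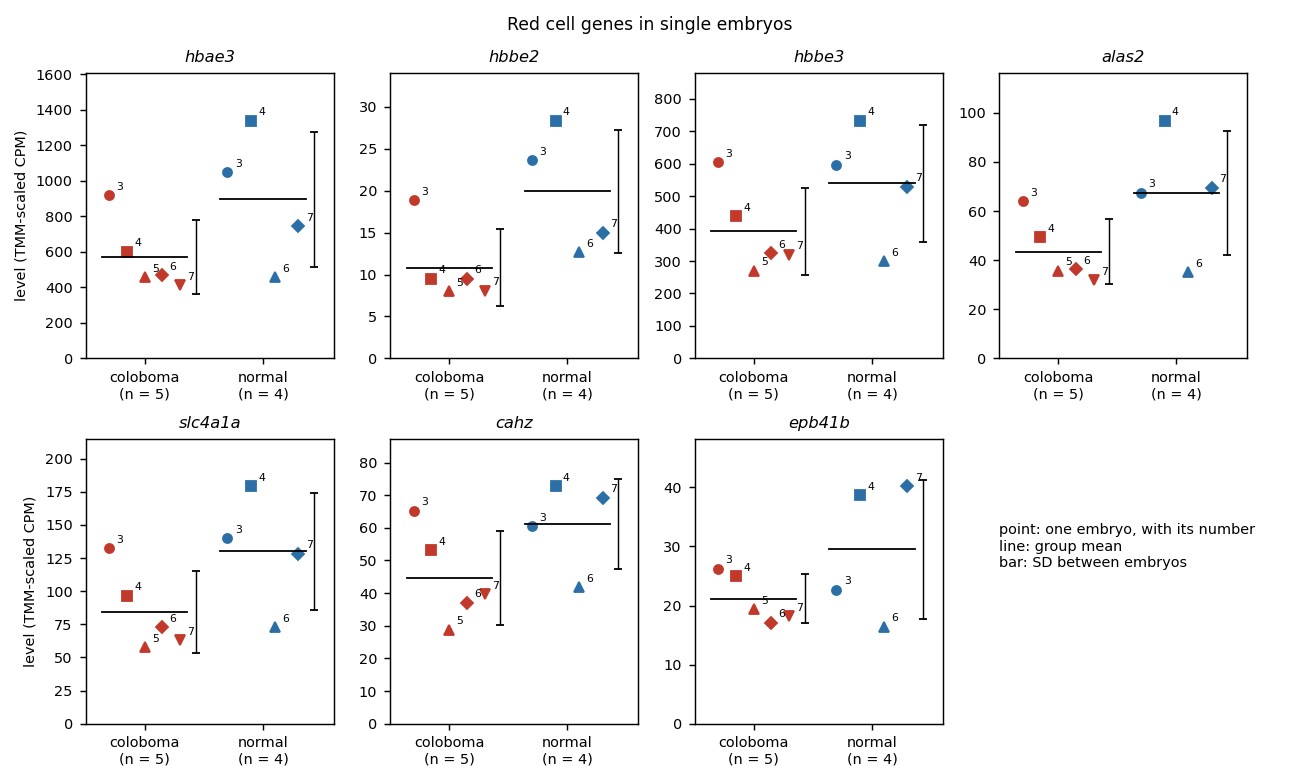
Level of each red cell gene in every embryo, in CPM (counts scaled by TMM to a common library size), with 5 coloboma embryos left and 4 normal embryos right in each panel; the line is the group mean, the bar the SD, and the digit the number of the embryo. Coloboma embryo 3 is the highest coloboma embryo and normal embryo 6 the lowest normal embryo in all 7 panels.

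The alpha-like embryonic globin hbae3 is encoded in the major globin locus on chromosome 3. Its level in CPM was 920, 600, 457, 469 and 414 in coloboma embryos 3 to 7, against 1049, 1339, 458 and 744 in normal embryos 3, 4, 6 and 7. Coloboma embryo 3 lay above 2 of the 4 normal embryos, and normal embryo 6 lay between coloboma embryos 5 and 6. The fitted log2 change was -0.65 ± 0.30 (SE; edgeR adjusted p = 0.440), a fold of 0.637 with a 95% interval of 0.401 to 1.013, and it was -0.40 without normal embryo 4.

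The beta-like globins hbbe3 and hbbe2 lie in the minor globin locus on chromosome 12. For hbbe3 the levels were 604, 439, 270, 323 and 320 CPM in coloboma embryos 3 to 7, against 596, 732, 299 and 529 CPM in normal embryos 3, 4, 6 and 7. Only coloboma embryo 5 was below the lowest normal embryo, and the log2 change was -0.46 ± 0.27 (SE; edgeR adjusted p = 0.554; fold 0.725, 95% interval 0.480 to 1.097). Without normal embryo 4 it was -0.29.

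The much scarcer hbbe2 had the largest difference of the 7 genes. It measured 18.9, 9.51, 7.98, 9.49 and 8.09 CPM in coloboma embryos 3 to 7, against 23.7, 28.3, 12.6 and 14.98 CPM in normal embryos 3, 4, 6 and 7. All coloboma embryos other than number 3 were below the lowest normal embryo, while number 3 was above normal embryos 6 and 7. The log2 change of -0.88 ± 0.29 did not pass over all genes (SE; edgeR adjusted p = 0.273; fold 0.542, 95% interval 0.346 to 0.848).

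The gene alas2, on chromosome 8, encodes the red cell form of the first enzyme of heme synthesis. It had 64.0, 49.3, 35.6, 36.4 and 31.8 CPM in coloboma embryos 3 to 7, against 67.4, 96.8, 35.2 and 69.4 CPM in normal embryos 3, 4, 6 and 7. Normal embryo 6 lay among the coloboma embryos, and every coloboma embryo was below the other 3 normal ones. The log2 change was -0.63 ± 0.27 (SE; edgeR adjusted p = 0.403; fold 0.647, 95% interval 0.428 to 0.976), and -0.41 without normal embryo 4.

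The anion exchanger of the red cell membrane, band 3, is encoded by slc4a1a on chromosome 3. Its levels were 133, 96.7, 57.5, 72.8 and 62.9 CPM in coloboma embryos 3 to 7, against 140, 179, 72.6 and 128 CPM in normal embryos 3, 4, 6 and 7. Its order of embryos was close to that of hbbe3, with coloboma embryo 3 above normal embryos 6 and 7. The log2 change was -0.62 ± 0.28 (SE; edgeR adjusted p = 0.421; fold 0.650, 95% interval 0.425 to 0.993).

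The red cell carbonic anhydrase cahz, on chromosome 2, speeds the exchange of carbon dioxide and bicarbonate. It measured 65.2, 53.1, 28.7, 37.1 and 39.7 CPM in coloboma embryos 3 to 7, against 60.5, 72.8, 41.9 and 69.2 CPM in normal embryos 3, 4, 6 and 7. Here 3 coloboma embryos were below the lowest normal one and coloboma embryo 3 was above normal embryos 3 and 6. The log2 change was -0.45 ± 0.23 (SE; edgeR adjusted p = 0.485; fold 0.734, 95% interval 0.519 to 1.04).

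The gene epb41b, on chromosome 16, encodes protein 4.1, which ties the spectrin skeleton to the red cell membrane. It had 26.2, 24.9, 19.4, 17.1 and 18.2 CPM in coloboma embryos 3 to 7, against 22.6, 38.7, 16.4 and 40.2 CPM in normal embryos 3, 4, 6 and 7. No coloboma embryo was below the lowest normal one, and the log2 change was -0.48 ± 0.25 (SE; edgeR adjusted p = 0.492; fold 0.717, 95% interval 0.492 to 1.05). Without normal embryo 7 it was -0.29. None of the 7 genes lay on the chromosome of zic2a (9) or of zic2b (1).

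**Figure D2:**
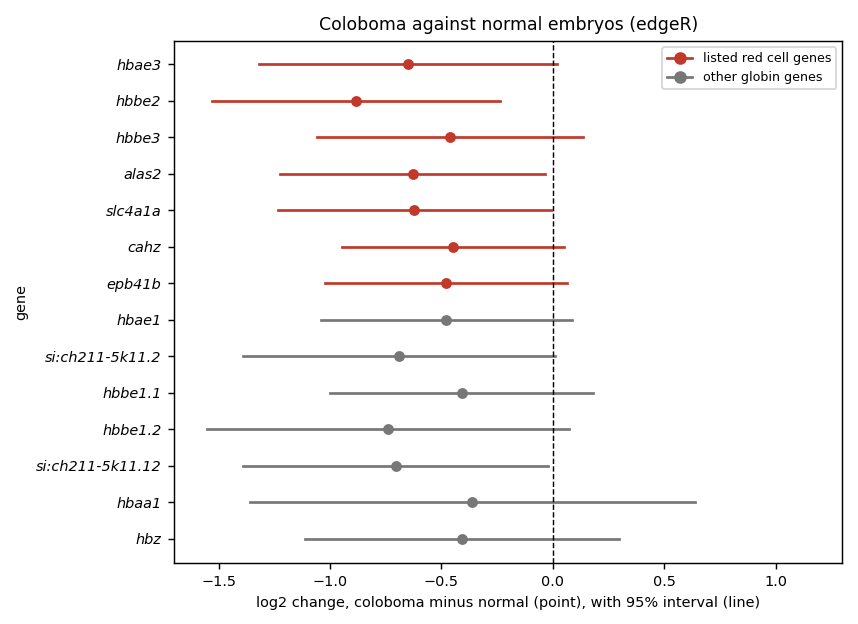
Log2 change, coloboma minus normal, of the 7 listed red cell genes and of 7 other globin genes, each with its 95% interval from the edgeR fit. All 14 points lie below 0, and the intervals of hbbe2, alas2, slc4a1a and si:ch211-5k11.12 lie wholly below it.

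The 7 genes varied more between embryos of one group than most genes did. Their biological coefficient of variation, the spread between replicates beyond counting error, was 0.244 to 0.319, against a median of 0.164 over the genes tested. For cahz, the least variable of the 7, 23.7% of the genes tested had a larger value, and for hbae3, the most variable, 12.5% did. Over the embryos of both groups together, the highest level was 2.45 times the lowest for epb41b and 3.55 times for hbbe2, with the other 5 genes between. That ratio includes any difference between the groups.

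The embryos kept much the same order from gene to gene. Coloboma embryo 3 was the highest coloboma embryo and normal embryo 6 the lowest normal embryo for all 7 genes, and coloboma embryo 3 exceeded normal embryo 6 each time. Normal embryo 4 was the highest of all embryos for 6 genes and normal embryo 7 for epb41b. The lowest of all was coloboma embryo 5 for 4 genes, coloboma embryo 7 for 2 and normal embryo 6 for epb41b. Averaged over the 7 genes, each centred on its own mean, the log2 levels were 0.40, -0.07, -0.61, -0.45 and -0.55 in coloboma embryos 3 to 7, against 0.45, 0.85, -0.41 and 0.39 in normal embryos 3, 4, 6 and 7. Thus 4 of the 5 coloboma embryos and 1 of the 4 normal embryos were below the mean of the 9.

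**Figure D3:**
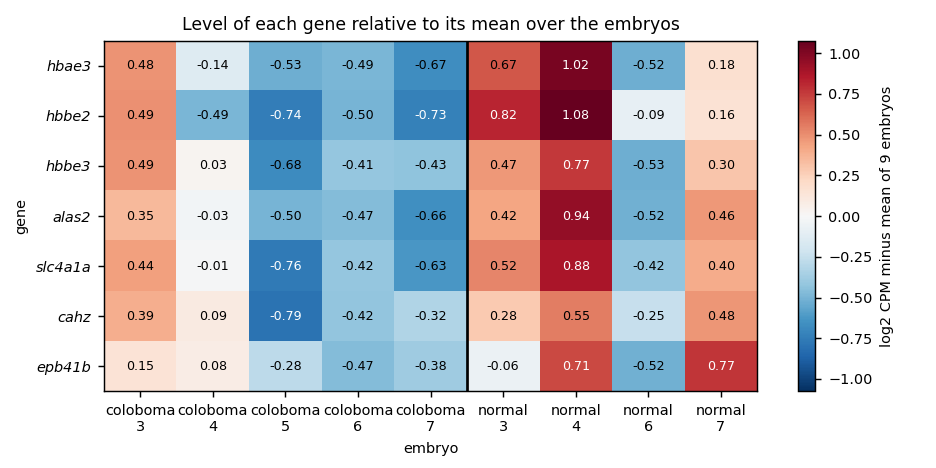
Log2 CPM of each red cell gene in each embryo minus the mean of that gene over the 9 embryos, coloboma embryos left of the line and normal embryos right of it. Whole columns share a colour: coloboma embryos 5, 6 and 7 and normal embryo 6 are low for all 7 genes, and coloboma embryo 3 and normal embryos 4 and 7 are high for all 7.

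Over the 21 pairs of the 7 genes, Pearson's r of log2 CPM across the 9 embryos had a median of 0.91 and ran from 0.63 (hbbe2 with epb41b) to 0.99 (hbbe3 with slc4a1a). With each group centred on its own mean the median was 0.90 and the range 0.50 to 0.99, so that the common movement was also present within the groups. These values describe 9 embryos, and all genes of an embryo share its library, its depth and its stage.

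Per length, in TPM (the share of transcripts after division by their length), hbae3 was the most abundant of the 7 genes. It had 1571 ± 497 TPM in the coloboma embryos (SD, n = 5) and 2573 ± 951 TPM in the normal embryos (SD, n = 4), and exceeded hbbe3 in all 9 embryos. The level of hbbe3 was 1160 ± 361 TPM in the coloboma embryos and 1677 ± 492 TPM in the normal embryos. Far below stood slc4a1a (34.9 ± 11.6 in coloboma and 56.3 ± 16.8 TPM in normal embryos), cahz (35.6 ± 10.6 in coloboma and 51.5 ± 10.95 TPM in normal embryos) and hbbe2 (28.0 ± 10.6 in coloboma and 54.2 ± 16.7 TPM in normal embryos). The order of these 3 was not fixed, since slc4a1a exceeded cahz in 5 of 9 embryos and cahz exceeded hbbe2 in 7. Next came alas2 (24.5 ± 6.69 in coloboma and 39.9 ± 13.6 TPM in normal embryos), which was below hbbe2 in 7 of 9 embryos, and last epb41b (5.85 ± 1.03 in coloboma and 8.64 ± 3.56 TPM in normal embryos), which was below alas2 in all 9.

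The listed globins were part of a larger set in the tables. The most abundant was si:ch211-5k11.2, a name that RefSeq gives as a synonym of the alpha-like hbae1.3, with 2373 ± 942 TPM in the coloboma embryos and 4005 ± 1292 TPM in the normal embryos. Its beta-like neighbour si:ch211-5k11.12 (synonym of hbbe1.3), and hbbe1.1, hbbe1.2 and hbae1, all of the major locus, had group means of 1061 to 1347 TPM in the coloboma embryos and of 1840 to 2083 TPM in the normal embryos. The adult alpha globin hbaa1 was near the limit of detection at this stage, with 0.490 ± 0.245 TPM in the coloboma embryos and 0.683 ± 0.286 TPM in the normal embryos. A pair of scarce zeta-type rows, hbz and HBZ, had 1.4 to 6.15 TPM in the coloboma embryos and 3.19 to 10.2 TPM in the normal embryos. RefSeq gives hbz as a synonym of both hbae4 and hbae5, so neither row was taken for hbae5, and HBZ was looked up after the values had been seen. Of these other globins (HBZ aside), 0 of 7 passed and all 7 had values below 0 (median log2 change -0.48), led by si:ch211-5k11.12 (-0.71 ± 0.31, SE; edgeR adjusted p = 0.418), si:ch211-5k11.2 (-0.69 ± 0.32; adjusted p = 0.434), hbbe1.2 (-0.74 ± 0.37; adjusted p = 0.473) and hbae1 (-0.48 ± 0.26; adjusted p = 0.511). Embryonic globins are near-identical in part, and an estimator divides the reads they share, so single values within a locus are uncertain.

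The summed globin level was 10030 ± 3258 TPM in the coloboma embryos (SD, n = 5) and 15970 ± 5119 TPM in the normal embryos (SD, n = 4). The ratio of embryonic alpha (hbae1, si:ch211-5k11.2, hbae3) to embryonic beta (hbbe1.1, hbbe1.2, si:ch211-5k11.12, hbbe2, hbbe3) was 1.08 ± 0.0442 in the coloboma embryos and 1.11 ± 0.0595 in the normal embryos. It ranged over 1.04 to 1.15 in the coloboma embryos and over 1.03 to 1.16 in the normal embryos. The part of the beta transcripts that came from the minor locus was 24.7% ± 0.411 in the coloboma embryos and 23.0% ± 0.937 in the normal embryos, and the groups overlapped by a narrow margin (24.1% in coloboma embryo 3 and 24.2% in normal embryo 7). These ratios were described and not tested.

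**Figure D4:**
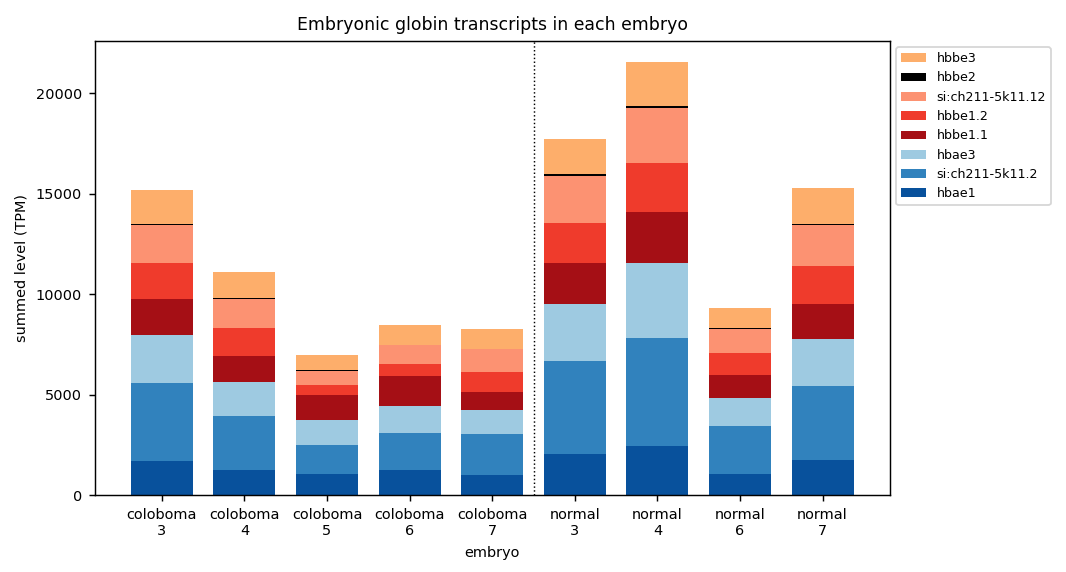
Summed level in TPM of 8 embryonic globin genes in each embryo, coloboma embryos left of the dotted line and normal embryos right of it; blue parts are alpha-like, red, orange and black parts beta-like. The blue part takes about the same portion of every column, and the split between hbbe1.1 and hbbe1.2 in coloboma embryos 5 and 6 differs from that in the other embryos.

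The split between the near-identical genes hbbe1.1 and hbbe1.2 set apart a pair of embryos. The ratio of their TPM was 1.001, 0.957, 2.54, 2.36 and 0.865 in coloboma embryos 3 to 7, against 1.04, 1.025, 1.015 and 0.940 in normal embryos 3, 4, 6 and 7. In coloboma embryos 5 and 6 hbbe1.2 had 192 and 233 CPM, below every other embryo, while hbbe1.1 had 487 and 551 CPM. The sum of both genes was 679 and 784 CPM in these embryos, beside 688 CPM in coloboma embryo 7 and 740 CPM in normal embryo 6. Other genes of the major locus differed there too. In coloboma embryos 5 and 6 hbbe1.1 had 1256 and 1500 TPM, above si:ch211-5k11.12 (706 and 921 TPM), and in the other 7 embryos it was below. In the same 2 embryos hbae1 had 1044 and 1267 TPM beside 1443 and 1825 TPM of si:ch211-5k11.2. In coloboma embryo 7 these genes had 1012 and 2047 TPM, and in normal embryo 6 1058 and 2387 TPM.

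Of 9 other genes of heme synthesis none passed, 8 had values below 0, and the median log2 change was -0.17. They are alas1, whose enzyme makes the same product as that of alas2, and genes of the later steps to heme. The smallest p was that of uros, uroporphyrinogen III synthase (11.3 ± 1.47 CPM in coloboma embryos and 13.7 ± 1.94 CPM in normal embryos; edgeR adjusted p = 0.422), followed by hmbsb (-0.28 ± 0.22, log2, SE), the ferrochelatase gene fech (-0.17 ± 0.15) and ppox (-0.12 ± 0.12). The gene alas1, which also serves cells outside the blood, was at -0.18 ± 0.18.

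Among 13 genes of iron and heme transport none passed, 11 were below 0 and the median was -0.12. The transferrin receptor genes tfr1b (35.4 ± 3.63 CPM in coloboma embryos and 43.5 ± 4.70 CPM in normal embryos; edgeR adjusted p = 0.284) and tfr1a (-0.38 ± 0.19, log2, SE), by which cells take up iron, had the smallest p, before the heme exporter gene flvcr1 (-0.20 ± 0.12) and slc25a37 (-0.19 ± 0.16), mitoferrin, the mitochondrial iron importer. For the other genes listed under red cell membrane and skeleton, 0 of 8 passed, 4 were below 0 and 4 above, and the median was 0.02. Values above 0 were those of ank1 (ankyrin, 0.32 ± 0.13), tmod4 (tropomodulin, 0.40 ± 0.15), slc4a1b (0.31 ± 0.17) and the spectrin gene sptb (0.19 ± 0.16), and rhag, the Rh-associated glycoprotein, was at -0.29 ± 0.15. Ankyrin, spectrin and tropomodulin genes are also expressed in muscle or neurons, so the counts of this list do not describe red cells alone. Across the 9 embryos, Pearson's r with the mean of the 7 genes was 0.06 for ank1, -0.01 for tmod4, -0.03 for slc4a1b and 0.50 for sptb. Whether the reads of slc4a1b came from red cells was not tested.

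Of 8 genes of red cell enzymes and maturation none passed, and 6 were below 0 (median -0.10). The antioxidant enzyme gene prdx2 had the smallest p, with 195 ± 17.2 CPM in the coloboma embryos and 260 ± 32.4 CPM in the normal embryos (log2 -0.42 ± 0.10, SE, edgeR adjusted p = 0.154). With DESeq2 prdx2 passed as lower (adjusted p = 0.0113), where 1.05% of genes did. The nucleotidase gene nt5c3a (0.40 ± 0.17) had all 5 coloboma embryos above all 4 normal ones, as had 2.27% of the genes tested, and did not pass (edgeR adjusted p = 0.378). The others by p were tspo (-0.23 ± 0.13) and bnip3lb (0.21 ± 0.18).

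None of 13 genes of erythroid control passed, 7 were below 0, and the median was -0.05. The master factor gata1a had 12.1 ± 2.29 CPM in the coloboma embryos and 13.1 ± 0.490 CPM in the normal embryos (log2 -0.12 ± 0.13, SE, edgeR adjusted p = 0.770). Its levels in coloboma embryos 4 to 7 (9.36 to 12.5 CPM) were below the lowest normal embryo (12.68 CPM). Coloboma embryo 3 (15.6 CPM) was above every normal embryo. The members with the smallest p were gfi1aa (0.60 ± 0.33), the erythropoietin receptor gene epor (-0.46 ± 0.30), the blood and mesoderm gene drl (-0.46 ± 0.31) and klfd (-0.40 ± 0.28), the Krüppel-like factor gene that RefSeq lists as klf1. Of these, gfi1aa was low in both groups, at 0.835 ± 0.255 CPM in coloboma embryos and 0.547 ± 0.229 CPM in normal embryos. Taking the 6 lists of other red cell genes together, 0 of 58 passed, where 0.127% of genes tested passed as lower and 0.0798% as higher. Below 0 were 43 of the 58, among them all 7 other globins, where 49.9% of the genes tested were. At an unadjusted p under 0.05 there were 4 lower (4.9% of all genes tested) and 3 higher (6.78%).

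**Figure D5:**
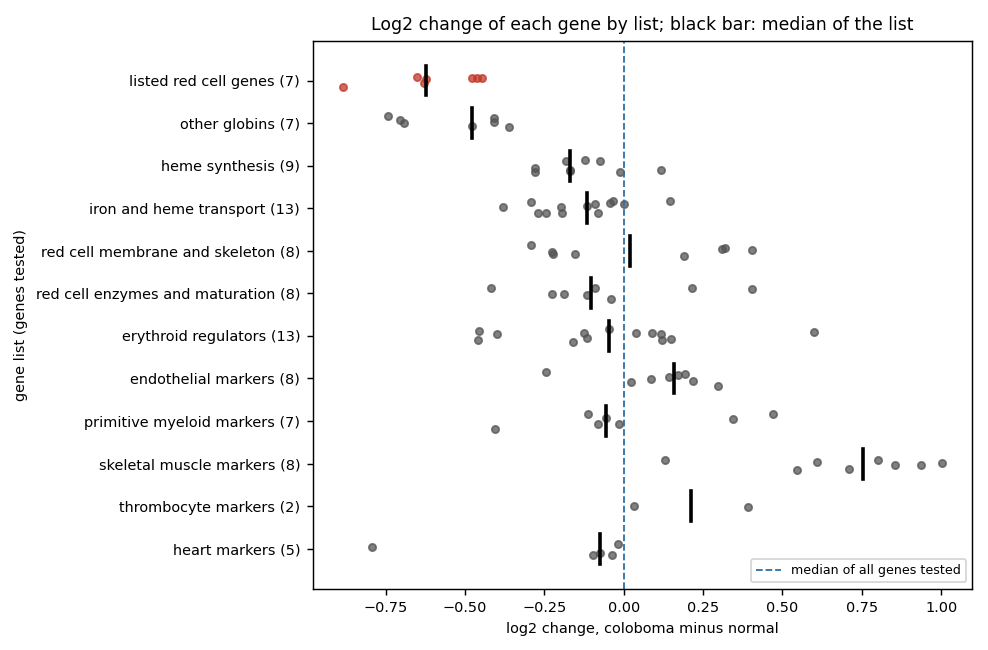
Log2 change, coloboma minus normal, of each tested gene by list, with the number of genes tested in brackets, the median of the list as a black bar and the median of all genes tested as a dashed line. The listed red cell genes and the other globins lie wholly below 0, with medians of -0.62 and -0.48, while erythroid regulators spread around 0 and 8 of 8 skeletal muscle markers lie above it.

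The genes whose pattern over the 9 embryos was most like the mean of the 7 genes were found among 18166 genes with at least 1 CPM on average. The first 10 were rhd (r = 0.97, Pearson, n = 9 embryos), si:ch211-5k11.2 (0.97), si:ch211-5k11.12 (0.97), tubb1 (0.97), ucp3 (0.95), hbae1 (0.95), rhag (0.95), jam2b (0.95), si:dkey-25o16.2 (0.94) and fbln1 (0.94). The first, rhd, belongs to the Rh blood group family, and its log2 change was -0.56 ± 0.24 (SE; edgeR adjusted p = 0.400). Of the first 50, with r from 0.86 upward, 15 stood in the lists of other red cell genes, of which 56 were ranked. By list, the median r was 0.94 over 6 other globins, 0.76 over 9 heme synthesis genes and 0.70 over 8 red cell enzyme and maturation genes. It was 0.62 over 12 erythroid regulators, which ranged from -0.77 to 0.91 with gata1a at 0.75, then 0.53 over 13 iron and heme transport genes and 0.20 over 8 membrane and skeleton genes. It was 0.22 over 2 thrombocyte markers, 0.13 over 8 endothelial markers, -0.01 over 7 primitive myeloid markers, -0.09 over 5 heart markers and -0.20 over 8 skeletal muscle markers, and -0.02 over all genes ranked.

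Markers of other tissues were set beside these levels. The summed level of 8 endothelial markers was 184 to 234 CPM in the coloboma embryos and 186 to 199 CPM in the normal embryos. For 7 primitive myeloid markers it was 98.7 to 153 CPM in the coloboma embryos and 98.6 to 142 CPM in the normal embryos. These groups overlapped, as they did for 2 thrombocyte markers (9.76 to 14.02 CPM in coloboma and 10.1 to 13.1 CPM in normal embryos) and for 5 heart markers (63.5 to 188 CPM in coloboma and 94.2 to 160 CPM in normal embryos). None of the 5 heart genes passed and all 5 had values below 0, led by nppa, a natriuretic peptide gene, with 3.17 ± 0.712 CPM in coloboma embryos and 5.47 ± 1.36 CPM in normal embryos (log2 -0.79 ± 0.21, SE; edgeR adjusted p = 0.171). With DESeq2 nppa passed as lower (adjusted p = 0.0243), where 1.05% of genes did. Without coloboma embryo 3 the values of tnnt2a, cmlc1 and myl7 were above 0. So were those of cmlc1 without normal embryo 3 or normal embryo 4, and that of myl7 without normal embryo 4. For vmhc coloboma embryo 3 was the lowest of all, with 22.8 CPM against 64.3 to 100.2 CPM in the other coloboma embryos. Of the 7 myeloid genes none passed, 5 were below 0 and 2 above, and the median log2 change was -0.06. The smallest p was that of csf1ra, a receptor gene of macrophages and pigment cells (6.04 ± 0.571 CPM in coloboma and 7.99 ± 1.59 CPM in normal embryos, log2 -0.41 ± 0.14, SE, edgeR adjusted p = 0.294). Next by p were lyz (0.34 ± 0.20) and spi1b (0.47 ± 0.28), both above 0, and then coro1a (-0.11 ± 0.15). The sum of 8 skeletal muscle markers was 25878 to 40298 CPM in the coloboma embryos and 15413 to 25683 CPM in the normal embryos. The groups were apart by a narrow margin (25878 CPM in coloboma embryo 5 and 25683 CPM in normal embryo 4). Taken singly, myhz1.1, myhz1.2, mylpfb and tnnt3a did not overlap between groups, and mylpfa, actc1b, ckma and smyhc1 did. Of all genes tested, 2.27% had every coloboma embryo above every normal one. Of 9 listed endothelial markers 8 had a row, since no row bore the symbol pecam1. These 8 and the 8 muscle markers were detected in every group. Of the 8 muscle genes, 1 passed as higher (myhz1.2, fast myosin heavy chain, 3749 ± 405 CPM in coloboma embryos and 2152 ± 365 CPM in normal embryos; edgeR adjusted p = 0.0490), where 0.0798% of the genes tested did, and 8 of 8 were above 0. That call was lost in 13 of 17 alternatives, among them library size only (adjusted p = 0.0507), and the adjusted p ran from 7.38e-07 with DESeq2 to 0.179 without normal embryo 6. At an unadjusted p under 0.05, 7 of the 8 were higher, where 6.78% of the genes tested were. These 8 are markers of one tissue read in the same embryos, so this is not a count of independent genes. After myhz1.2 by p came mylpfb (log2 change 0.85 ± 0.17, SE, edgeR adjusted p = 0.101), tnnt3a (0.61 ± 0.14) and mylpfa (0.55 ± 0.15), parts of fast muscle fibres. Of the endothelial genes none passed, and 7 were above 0 and 1 below (median log2 change 0.16). Those of smallest p were etv2 (0.30 ± 0.12), fli1a (-0.25 ± 0.11), tie1 (0.19 ± 0.10) and cdh5 (0.22 ± 0.12). Coloboma embryo 3 had the highest muscle sum and the highest red cell levels of its group, and normal embryo 7 the lowest muscle sum. The part of muscle content or of small differences in stage in the red cell levels was not tested.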

How the data were processed

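Libraries were prepared from total RNA with a TruSeq RNA kit from Illumina, per the labels' protocols. The deposited estimated counts (whole numbers per gene symbol) and the deposited TPM values by the authors came with the names CASAVA 1.8.2, RSEM 1.2.18, Bowtie 1.1.1 and build Zv9, per the submitters' processing notes; which step each tool served, and the annotation, are not given in the sources used here. For every gene the total was at least 10, the smallest in the table, and rounding changed no value.

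Coloboma was compared with normal embryos by edgeR 4.0.16 in R 4.3.3 (filterByExpr with a minimum count of 10, TMM scaling, quasi-likelihood F test, no covariate, Benjamini-Hochberg over all 21293 genes tested, threshold 0.05). The SE comes from the fold change and F, and the 95% interval from the degrees of freedom of the test. The steps were tested on simulated data. Alternatives used DESeq2 1.42.0, limma 3.58.1 on log2(TPM + 0.1) and log2(TPM + 1), other scalings and filters, a replicate block, and left out each embryo in turn. The replicate block used only the embryo numbers found in both groups, so coloboma embryo 5 was left out of it.

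The red cell genes and all lists were chosen with earlier results of these data known. Named were the listed genes, gata1a, up to 4 genes of smallest p per list, and the 10 genes most like the mean of the 7. Genes outside this rule (alas1, sptb, hbbe1.1, hbz, HBZ, hbaa1 and vmhc) were chosen after their values were seen. Chromosomes and synonyms came from a RefSeq table of assembly GRCz12tu, with no coordinates used. Of the 66 other red cell list entries, 58 were matched. The kit does not mark strand, so reads of a gene and of an antisense partner were not separable.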

Additional observations from a re-analysis of the deposited data

Results flagged for a closer look

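In 152 groups of 4 or 5 embryos examined for a single embryo far from the others, 5 stood out, and chance alone flags about 5% of such groups. The level of hbbe2 in coloboma embryo 3 was 18.9 CPM, above the other coloboma embryos by a gap of 0.860 of the range of the group. The level of gfi1aa in the same embryo was 1.28 CPM, with a gap of 0.812 of the range, and that of the muscle gene tnnt3a was 1786 CPM, with a gap of 0.7665 of the range. The level of hbz in normal embryo 6 was 1.06 CPM, below the other normal embryos by a gap of 0.862 of the range. The ratio of alas2 to slc4a1a in TPM was 0.848 in coloboma embryo 5, above the other coloboma embryos by a gap of 0.8004 of the range.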

How the results depend on the processing

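For the 7 red cell genes, all 119 values over 17 alternatives kept the negative sign and 0 passed at a threshold of 0.05. The adjusted p ran from 0.0704 for hbbe2 with DESeq2 to 0.769 for hbbe3 in edgeR without normal embryo 3. At a threshold of 0.1, 0 passed in the edgeR fit of all 9 embryos, while hbbe2 with DESeq2 lay below that threshold. These 119 values are not independent, since the 7 genes moved together and the alternatives reuse the same embryos. The median of the 7 genes was -0.40 without normal embryo 4, -0.81 without coloboma embryo 3 and -0.83 without normal embryo 6. Unadjusted p was under 0.05 for 3 of them in all 9 embryos, 6 without coloboma embryo 3 and 7 without normal embryo 6, where 4.85% and 3.37% of all genes were lower at that level, and for 1 without coloboma embryo 5, 6 or 7 or normal embryo 3, 4 or 7. The count of all genes past the threshold, 44, was 577 with DESeq2 (365 higher, 212 lower), 18 with a replicate block, 86 at a threshold of 0.1, and 21 to 235 leaving out 1 embryo (235 without coloboma embryo 5, 21 without coloboma embryo 4 or normal embryo 3, 25 without normal embryo 6 and 27 without normal embryo 7); the causes were not tested. Of the other red cell lists 1 gene of 58, prdx2, passed as lower with DESeq2, where 1.05% of all genes did, and 0 in the other settings. As a share of TPM the 7 genes made up 0.288% in coloboma and 0.450% in normal embryos; leaving out 1 embryo, the share of counts was 0.0988% to 0.120% in coloboma and 0.155% to 0.205% in normal embryos, and the ratio of alpha to beta globin 1.068 to 1.096 in coloboma and 1.093 to 1.135 in normal embryos. For the 4 embryo numbers shared by the groups, the correlation of deviations from the group means was -0.07 to 0.07. For embryos of unlike number it ran from -0.16 to 0.12, so these values cannot show whether equal numbers pair embryos. The replicate block left out coloboma embryo 5, whose number no normal embryo shares. Under the block the median of the 7 genes was -0.50 and 18 genes passed. Without that embryo and with no block the median was -0.51 and 235 genes passed. Scaling by library size moved the median of all genes by less than 0.1 and gave 12 higher and 33 lower genes, against 17 and 27. In 13 of 17 alternatives myhz1.2 no longer passed. The part of depth in these limits was not tested. Among marker genes that did not pass, the sign of the log2 change turned for gp1bb (0.03 in all embryos, -0.0504 with library size only, -0.0657 and -0.0558 in limma on TPM with a pseudocount of 0.1 and 1, and -0.0144 to 0.124 leaving out 1 embryo), tnnt2a (-0.10 in all embryos and -0.248 to 0.00788 leaving out 1 embryo), cmlc1 (-0.07 and -0.292 to 0.0781) and myl7 (-0.04 and -0.144 to 0.0946). With DESeq2 prdx2 and nppa also passed as lower and mylpfb, tnnt3a and mylpfa as higher, where 1.05% and 1.81% of genes did. The gene mylpfb also passed without coloboma embryo 5 and without normal embryo 4.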

Other observations

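Ratios between red cell genes that stand in no comparison above were also read per length, in TPM, and were not tested. The ratio of hbbe3 to hbbe2, both of the minor globin locus, was 36.4 to 52.5 in the 5 coloboma embryos and 26.9 to 40.2 in the 4 normal embryos. That of hbae3 to hbbe3 was 1.196 to 1.604 in the coloboma embryos and 1.32 to 1.69 in the normal embryos. The ratio of alas2 to slc4a1a was 0.661 to 0.848 in the coloboma embryos and 0.660 to 0.741 in the normal embryos. In each of these ratios the groups overlapped.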
